A study of Mus musculus with 127 samples.

Results

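Myelo-2 cells, the largest class of granulocyte precursors among single cells sorted from mouse bone marrow, were described across genes and from cell to cell. The members were all cells to which the authors' deposited class file gives the name Myelo-2, and they number 72, against 55 cells with 10 other class names, which were pooled as the comparison. The sources used here do not say how the authors assigned the classes. The classes may have been built from these same values, so differences between Myelo-2 and the rest are descriptions, with no test.

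Neutrophil granulocytes load their granules in a fixed order while they mature. Primary (azurophil) granules with elastase and myeloperoxidase are made in early promyelocytes, specific granules with lactoferrin, lipocalin and cathelicidin in dividing myelocytes and in metamyelocytes, and gelatinase granules in later cells that have stopped dividing. Cebpe encodes C/EBP-epsilon, the transcription factor known to be required for specific granule genes, and proliferation is known to end at the step from myelocyte to metamyelocyte.

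All cells came from wild-type C57BL/6 mice, whose age, sex and number the labels do not give. Hindlimb marrow was released by crushing, bead-enriched for CD117, the product of Kit, and sorted into 3 gates of a population labelled GMP-P: CD11b+ Ly6g high, CD11b+ Ly6g low, and a gate labelled CD11b+. Myelo-2 held 27 of 46 cells of the Ly6g high gate (58.7%, exact 95% binomial interval 43.2 to 73%), 31 of 41 of the Ly6g low gate (75.6%, 59.7 to 87.6%) and 14 of 40 of the CD11b+ gate (35%, 20.6 to 51.7%). No animal is named, so each gate is 1 sample, no difference between gates has a replicate check, and gate and capture plate cannot be told apart.

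The files give log2(TPM + 1), where TPM is a transcript's share scaled to the same total in every cell, so read depth is unknown and the number of genes at 1 TPM or more (called detected below) stands in for it. Myelo-2 cells had 1359 to 4503 detected genes, with a median of 2239.5, against medians of 1409 in Myelo-4 and 4315.5 in Gran-2 cells. A pair of Myelo-2 cells stood apart. Ly6g low cells 8 and 10 correlated at r = 0.884 over all genes, while the next highest of the 8001 pairs of cells reached 0.703 and the median pair of Myelo-2 cells 0.495. They had the most detected genes in the class (4278 and 4503) and shared 3925 of them. Counting the pair as 1 cell left 265 genes at least 2-fold higher and 1601 at least 2-fold lower, against 273 and 1593 with both.

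All 7 marker genes taken for a dividing granulocyte precursor were present in Myelo-2 cells. Camp, which encodes the antimicrobial peptide cathelicidin, ranged from 20283 TPM in the lowest cell through a median of 62230 to 110752 in the highest. Ngp, a neutrophilic granule protein, ranged from 28420 through 122243 to 194960 TPM, and Lcn2, the iron-siderophore trap lipocalin 2, from 4738 through 14491 to 28856 TPM. No cell of the class lacked any of these 3 specific granule messages. Ltf, the iron-binding protein lactoferrin, was also detected in all 72 cells but spread far more, from 116 through 9602 to 22502 TPM. Cebpe was detected in 69 of 72 cells with a median of 51.98 TPM and a maximum of 606. Itgam, the CD11b integrin chain used for the sort, was detected in 71 cells with a median of 92.03 TPM. Mki67, a marker of dividing cells, was detected in 58 cells with a median of 63.1 TPM and a maximum of 443.

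Detection alone did not separate the class. Camp and Ngp reached 1 TPM in all 55 other cells as well, at levels down to 5.41 and 15.1 TPM. The levels divided the cells into those with a granule program and those without. Of the other cells, 24 fell within the Myelo-2 range of Camp and 26 within that of Ngp, and all of them were of the classes Myelo-1, Myelo-3 or Myelo-4. Median Camp was 57227 TPM in the 5 Myelo-1 cells, 49563 in the 9 Myelo-3 cells and 43403 in the 16 Myelo-4 cells, all inside the Myelo-2 range. Ltf set Myelo-1 apart, with a median of 72.5 TPM there against 9456 in Myelo-4. Kit, the gene of the receptor used for the bead enrichment, was detected in only 12 of 72 Myelo-2 cells (16.7%, exact 95% interval 8.92 to 27.3%), with a maximum of 150 TPM. Cells 8 and 10 gave 34.1% of the summed Kit of the class.

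**Figure D1:**
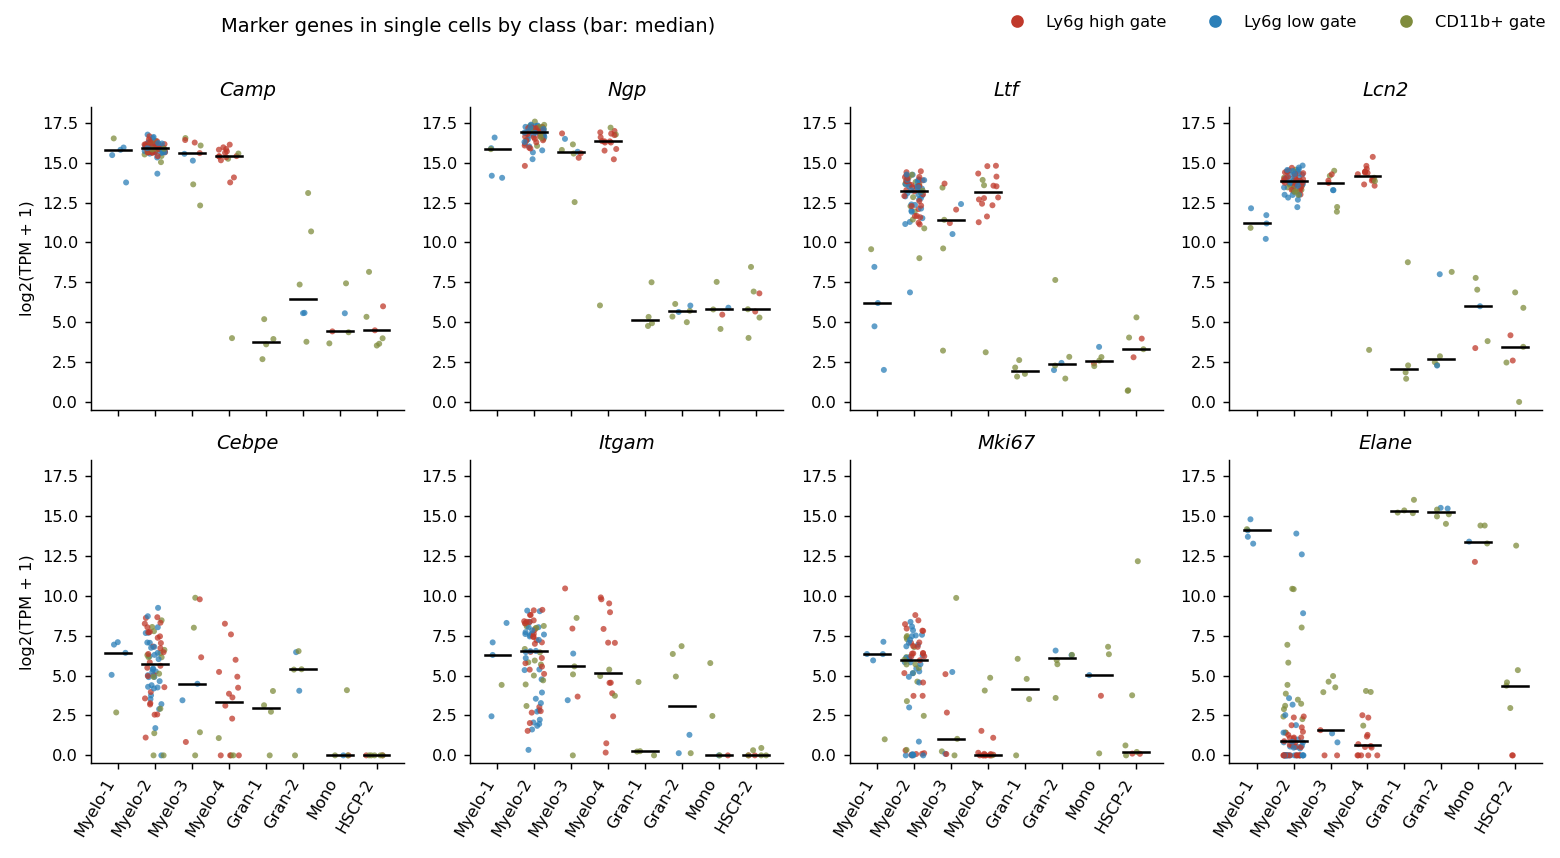
Each point is 1 cell, its height the log2(TPM + 1) of the gene in the panel title, its column the deposited class and its colour the gate; black bars are medians, and 3 classes of 1 cell each are left out. Myelo-2 cells lie together at the top for Camp, Ngp and Lcn2, overlap Myelo-3 and Myelo-4 there, and spread from 0 upward for Mki67 and Elane.

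The starts of 4 marker genes are shown because they encode specific granule proteins and Cebpe belongs to a family whose members bind a shared short motif. The letters TTGCNNAA were searched, with TTNNGCAA as their other strand, in the 250 bases upstream of each gene start in RefSeq's GRCm38.p6 windows. These letters are those of a general C/EBP site and are not particular to C/EBP-epsilon. Windows were matched for 6 of the 7 markers, and 3 of the 6 held the motif, as did 9.56% of all 32851 windows. Of 15 matched genes of the specific granule list 6 held it, among them the same 3 markers, so the shares are not separate. That list also holds genes of other kinds, such as Cnnm3 and the leukotriene receptor gene Ltb4r1. Ngp (chr9:110419558-110419807, plus strand) held it at 138 and at 11 bases before the start, Ltf (chr9:111019042-111019291, plus strand) at 75 and Lcn2 (chr2:32387740-32387989, minus strand) at 216 bases. Camp (chr9:109849457-109849706, minus strand) held no match and is shown beside them. A match describes letters only, and binding was not measured. The sequences read 5′ to 3′ toward the gene, with the motif in capitals.
Ngp: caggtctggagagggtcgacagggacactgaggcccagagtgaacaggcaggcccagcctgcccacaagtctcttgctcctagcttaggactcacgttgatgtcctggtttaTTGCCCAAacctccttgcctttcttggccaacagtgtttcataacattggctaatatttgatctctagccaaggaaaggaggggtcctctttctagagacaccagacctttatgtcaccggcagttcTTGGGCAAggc
Ltf: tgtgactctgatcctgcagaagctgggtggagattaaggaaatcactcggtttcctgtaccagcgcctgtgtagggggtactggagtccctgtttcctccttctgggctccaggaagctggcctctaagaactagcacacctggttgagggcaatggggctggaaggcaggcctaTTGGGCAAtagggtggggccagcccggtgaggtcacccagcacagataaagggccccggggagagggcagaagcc
Lcn2: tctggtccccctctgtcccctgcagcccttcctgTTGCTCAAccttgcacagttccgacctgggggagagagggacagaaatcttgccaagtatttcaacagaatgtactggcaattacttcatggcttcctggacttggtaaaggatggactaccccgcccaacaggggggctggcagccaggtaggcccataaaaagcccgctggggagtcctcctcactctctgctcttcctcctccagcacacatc
Camp: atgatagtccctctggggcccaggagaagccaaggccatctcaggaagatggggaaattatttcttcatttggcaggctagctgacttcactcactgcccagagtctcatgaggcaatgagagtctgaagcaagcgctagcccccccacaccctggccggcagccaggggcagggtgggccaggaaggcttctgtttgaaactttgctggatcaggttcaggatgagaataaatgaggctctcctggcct

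Across genes, Myelo-2 cells differed from the rest more by what was low than by what was high. The mean TPM of the 72 cells was set against that of the 55 others as a log2 ratio after adding 1 TPM to each, for the 4387 genes detected in 25% or more of cells on 1 side or both. Of these, 273 (6.22%) were at least 2-fold higher and 1593 (36.3%) at least 2-fold lower in Myelo-2. The median log2 ratio over all measured genes was -0.61, and it was 0.09 within the Ly6g high gate, -0.59 within Ly6g low and -0.98 within CD11b+. This balance depends on scale and on the cells compared with. S100a9, S100a8, Ngp and Camp together took 18.1 to 61.4% of a Myelo-2 cell's TPM, with a median of 49.2%, against 17.8% in the others. After the specific granule, calgranulin and lysozyme genes were removed and each cell was rescaled, 850 genes were higher and 805 lower, a share of 51.4% higher against 14.6% before, and the median of all genes moved to 0.08. Against the 30 cells of the other Myelo classes alone, 918 were higher and 485 lower. The other cells also differ by gate: in Ly6g high 13 of 19 were Myelo-4, and in CD11b+ 16 of 26 were Gran, HSCP-2 or Mono cells.

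Genes of the specific granule list, which also holds genes such as Ltb4r1 and Cnnm3, were on the high side in every gate. Of 15 measured members of that list, 7 were at least 2-fold higher and 0 at least 2-fold lower, against 6.22% and 36.3% of all genes. The median log2 ratio was 0.94, with gate medians of 0.62, 1.31 and 1.999 (in the order Ly6g high, Ly6g low, CD11b+ here and below). Chil3, a chitinase-like secreted protein, had a mean of 17199 TPM against 2995 in the others, and also exceeded the other Myelo classes, whose means lay between 4470 and 6980 TPM. Orm1, the acute-phase protein orosomucoid 1, was detected in 58 of 72 Myelo-2 cells and in 10 of 55 others, with means of 260 and 32.1 TPM. Ngp stood at a mean of 117724 against 39660 TPM. Against the other Myelo classes alone the list median was 0.39. Reads of close copies such as Orm1 and Orm2, or Lyz1 and Lyz2, can be divided between them by the authors' quantification, so their single values are uncertain.

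Calgranulin and lysozyme genes were abundant in Myelo-2 but set it apart little. S100a9 and S100a8, the calprotectin subunits, were the highest genes of the class at means of 159377 and 151956 TPM. Against the rest their log2 ratios were 0.65 and 0.79. Of the 8 listed genes, 2 were at least 2-fold higher (Lyz2, lysozyme 2, at 1.35 and Lyz1 at 1.08) and 1 lower, against 6.22% and 36.3% of all genes. The list median of 0.39 turned to -0.11 against the other Myelo classes alone. The 6 subunits of the NADPH oxidase, the enzyme that makes superoxide in neutrophils, had a median of 0.46. Cybb, its catalytic chain, had a log2 ratio of 1.13, and Cyba (0.66) and Rac2 (0.49) were between.

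Primary granule genes were mostly low. Of 14 measured, 12 were at least 2-fold lower and 0 at least 2-fold higher, against 36.3% and 6.22% of all genes. The list median was -3.21, with gate medians of -1.67, -2.95 and -4.41. Mpo, myeloperoxidase, had the lowest ratio of the genes in the ranked set (-8.20): a mean of 29.6 TPM in Myelo-2, where 24 of 72 cells had it detected, against 9004 TPM in the others. Cells 8 and 10 gave 41.6% of its Myelo-2 sum, and without the highest cell the mean was 17.96 TPM. Ctsg, cathepsin G, was detected in 5 of 72 cells against 26 of 55, and Prtn3, proteinase 3, in 19 of 72 against 34 of 55. Serpinb1a, an inhibitor of these proteases and singled out after the values were seen, did not share the pattern: it was detected in 70 of 72 cells at a mean of 1399 TPM against 927 in the others, a log2 ratio of 0.59. The low level of Mpo in Myelo-2 was shared with Myelo-3 (mean 8.62 TPM) and Myelo-4 (1.88), while Myelo-1 (5135), Gran-1 (25282), Gran-2 (30701) and Mono cells (22517) were high. Against the other Myelo classes alone the list median was -1.05.

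Mmp8, Retnlg and Mmp9, genes of later neutrophils, had lower means in Myelo-2 than in Myelo-4. Of 15 measured genes of this kind, 6 were at least 2-fold lower and 0 higher against all other classes. That share lay near the 36.3% of all genes, and the median of -0.47 near the -0.61 of all genes, with gate medians of -0.64, 0.23 and -0.38. Mmp8, neutrophil collagenase, had a mean of 0.63 TPM in Myelo-2 with 5 of 72 cells detected, against 2281 TPM in Myelo-4. Retnlg, a resistin-like secreted protein, averaged 156 against 10493 TPM in Myelo-4, and Mmp9, gelatinase B, 50.5 against 867. Cxcr2, the receptor for neutrophil-attracting chemokines, was detected in 67 of 72 cells at a low median of 7.38 TPM. Within the Ly6g low gate, where 0 of the other cells were Myelo-4, the Retnlg ratio was 4.23. The Mmp9 ratio there was 2.32, and 1 cell at 126.87 TPM gave 91.04% of the Mmp9 sum of the 31 Myelo-2 cells.

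Single regulators of the lineage differed in direction. Cebpe had a log2 ratio of 0.66 with the same sign in each gate (0.48, 0.85 and 0.76), and median levels of 51.98 TPM in Myelo-2, 85.1 in Myelo-1, 21.45 in Myelo-3 and 9.54 in Myelo-4. The means were 103, 76.1, 242 and 42.4 TPM, and that of Myelo-3 was 155 TPM without its highest cell, so the order of Myelo-2 and Myelo-3 differs between mean and median. Cebpa, which acts earlier than Cebpe, was detected in 2 of 72 cells and Gfi1, a repressor required for neutrophil formation, in 9 of 72. Neither passed the detection filter. Trib1, a pseudokinase that targets C/EBP-alpha for degradation, was at 0.72 TPM on average against 37.8. Of 12 measured regulators 2 were at least 2-fold higher and 2 lower, against 6.22% and 36.3% of all genes. Their median was -0.39, against -0.61 for all genes. Among 12 measured integrin and adhesion genes 3 were lower and 0 higher: Selplg, the selectin ligand PSGL-1, Itga4 and Itgal. That share was under the 36.3% of all genes, and the list's median was -0.06 against -0.61. Without the CD11b+ gate the ratios of Itga4 and Itgal changed sign.

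Defining markers of other lineages were rarely detected, while summed monocyte genes reached 100 TPM in 38 of 72 cells and summed progenitor genes in 17. Irf8 and Csf1r, the defining factor and receptor of monocytes, reached 1 TPM in 0 of 72 cells, which allows a share of up to 4.17% of cells at that level by counting error alone. This limit is not one on cells that express the genes, since a gene can be listed at 0 in a cell that holds its RNA. Of 17 monocyte genes 6 were detected in any Myelo-2 cell, and Ccr2, Cd74, Ms4a6b, Fn1 and S100a4 were listed at 0 in all 72. Summed monocyte genes ranged from 0 through a median of 111 to 1720 TPM, against a median of 224 and a maximum of 9382 in the others, and Lgals3, 1 of the 4 measured members, was detected in 54 of 72 cells. Summed progenitor genes had a median of 24.5 TPM against 188, with Mecom, Flt3 and Mycn listed at 0. No gene of the erythroid and megakaryocyte, basophil, mast cell and eosinophil, dendritic, B cell, T and NK cell or macrophage lists passed the detection filter, and each of these 6 lists had a median sum under 1 TPM in Myelo-2. Summed erythroid and megakaryocyte genes reached 100 TPM in 3 of 72 cells, and summed macrophage genes in 8.

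**Figure D2:**
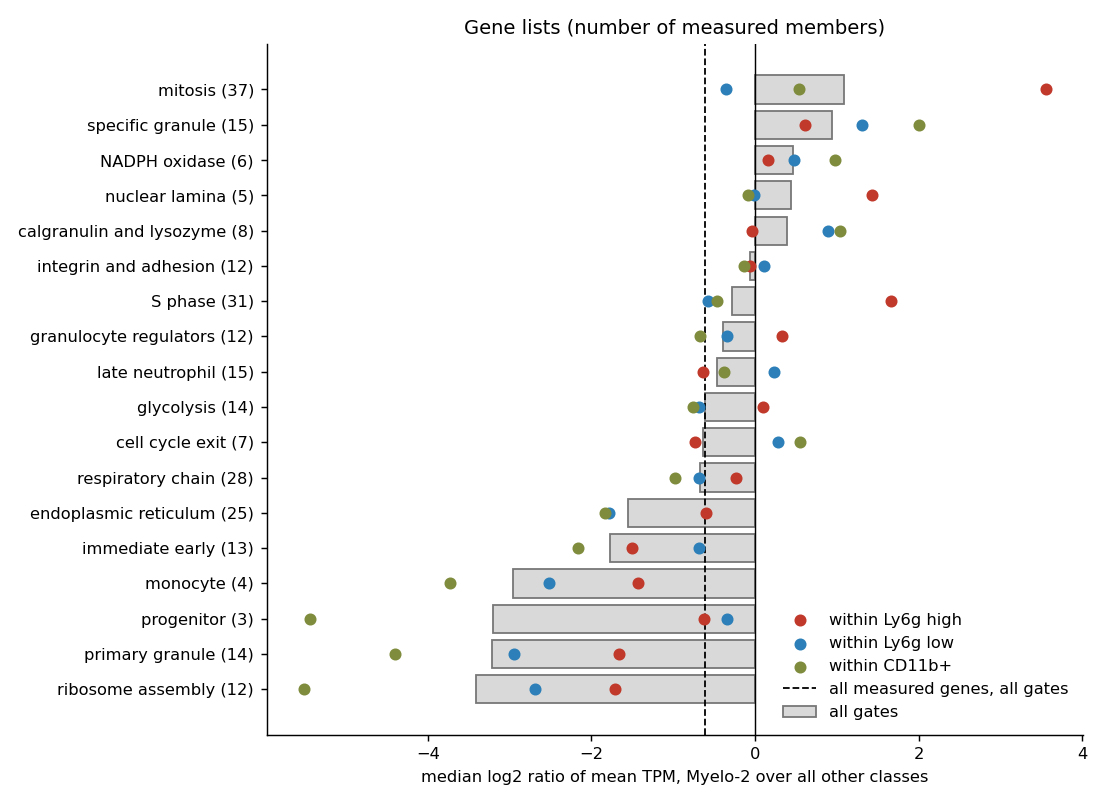
Bars give the median log2 ratio of mean TPM of each gene list, Myelo-2 over all other classes, with the number of measured members; coloured points give the same within each gate, and the dashed line marks the median of all measured genes. Specific granule medians lie above 0 in all gates, primary granule and ribosome assembly medians below 0 in all gates, and the mitosis and S phase points of the Ly6g high gate lie far right of the others.

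Most Myelo-2 cells carried cell cycle messages. Of 40 mitosis genes a cell had 0 to 36 detected, with a median of 24, and of 35 S phase genes 1 to 31, with a median of 14. In Myelo-4 the medians were 0 and 1.5 genes. With 5 or more genes as the line, 52 Myelo-2 cells had both sets, 10 mitosis genes without S phase genes, 2 the reverse, and 8 neither, while all 16 Myelo-4 cells had neither. Both sets were also present in all 5 Myelo-1, 4 Gran-1, 6 Gran-2 and 5 Mono cells. The 10 cells with mitosis genes alone came from Ly6g high (8) and CD11b+ (2), and the Ly6g low gate had 0 of 31. The 8 cells with neither set had 1359 to 1799 detected genes, against a median of 2261 in the other 64. Across the 72 cells the number of detected genes went with the number of mitosis genes (Spearman rho 0.68) and of S phase genes (0.69), and its part in these counts was not tested. Mitosis and S phase gene numbers themselves correlated at 0.24. Ltf in the 8 cells had a median of 11267 TPM, against 9182 in the rest, and the groups overlapped fully.

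**Figure D3:**
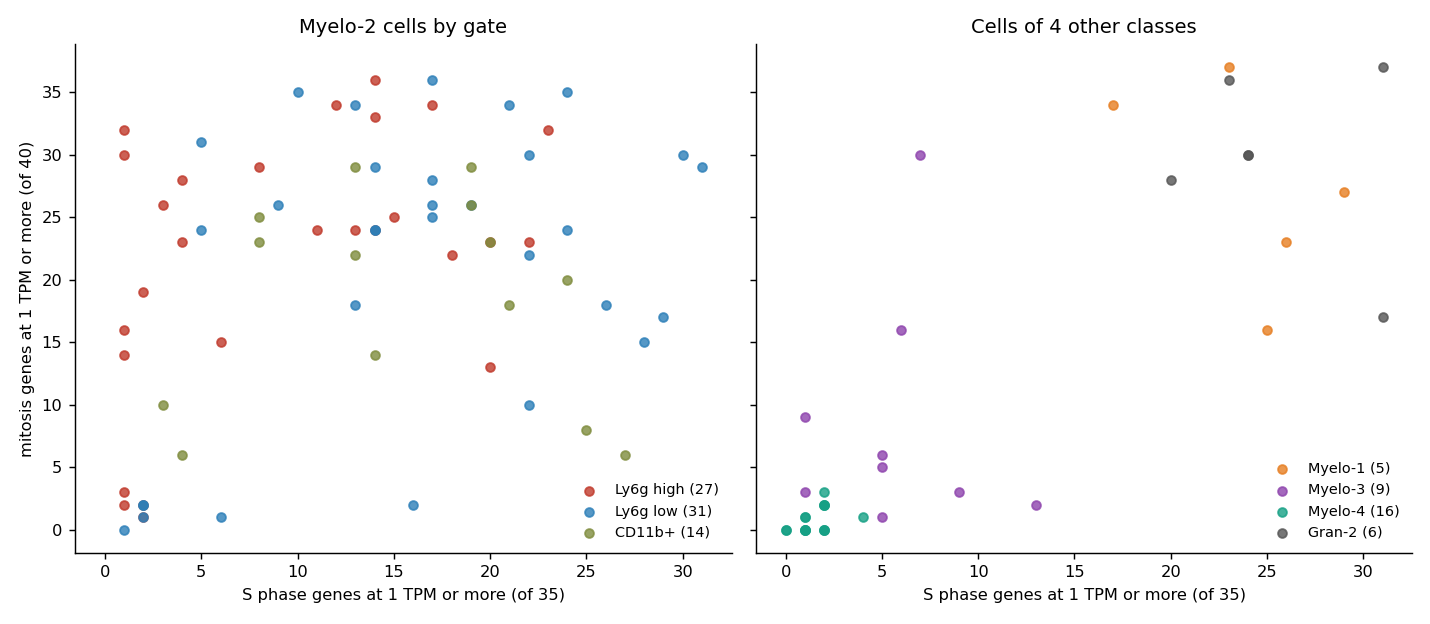
Each point is 1 cell, placed by its number of detected S phase genes (of 35) and mitosis genes (of 40), for Myelo-2 by gate on the left and for 4 other classes on the right. Myelo-2 cells fill the area between an upper left edge of Ly6g high cells and an upper right edge of Ly6g low cells, and the 16 Myelo-4 cells lie near the origin.

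In mean level, 19 of 37 measured mitosis genes were at least 2-fold higher and 2 lower, with a median of 1.09. Of all measured genes 6.22% were higher and 36.3% lower. That median was 3.55 within the Ly6g high gate but -0.36 within Ly6g low and 0.54 within CD11b+. Bub1, a spindle checkpoint kinase, was higher in every gate (2.47 over all gates, 31 of 72 cells against 11 of 55). Prc1, which bundles the central spindle, and Nuf2, of the kinetochore, had ratios of 1.85 and 1.84 over all gates and -0.81 and -1.24 within Ly6g low. Mki67 itself had a mean of 89.3 TPM against 124 in the others, where 1 HSCP-2 cell at 4605 TPM gave 67.7% of the sum. Without the highest cell of each side its ratio went from -0.46 to 1.04. S phase genes had a median of -0.28 (1.66, -0.58 and -0.46 by gate), with 2 of 31 higher and 10 lower. Both shares lay near the 6.22% and 36.3% of all genes. The S phase median turned to 0.70 after removal of granule genes and 0.88 against the other Myelo classes alone. Mcm2, a subunit of the replicative helicase, had a ratio of -2.42 over all gates but 2.56 within Ly6g high.

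Genes that restrain division differed in direction. Cdkn2c, which encodes the CDK4 and CDK6 inhibitor p18, was among the highest ratios of all (3.70; 21 of 72 cells against 6 of 55). Mxd3, a MAX dimerization protein of the MYC network, had the highest ratio of the ranked set (5.47), with 27 of 72 cells detected against 3 of 55 and a maximum of 827 TPM. In contrast, Btg1 (-1.69) and Btg2 (-1.53), anti-proliferative factors, were lower. Cdkn1b, encoding p27, had a ratio of -0.97, short of the 2-fold line. Of 7 measured genes of cell cycle exit 2 were higher and 2 lower, with a median of -0.64, near the -0.61 of all genes. Of all genes 6.22% were higher and 36.3% lower. In the nuclear lamina list Tmpo (1.38) and Lmnb2 (1.06) were the 2 of 5 that were higher.

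Genes for building ribosomes were low. All 12 measured ribosome assembly genes, of 18 listed, were at least 2-fold lower, against 36.3% of all genes. Their median was -3.41, with gate medians of -1.71, -2.68 and -5.52, and without a filter on low values the list median was -2.77. Mybbp1a, a nucleolar protein, reached 1 TPM in 0 of 72 Myelo-2 cells against 20 of 55 others, and Pes1, of the large subunit pathway, in 2 against 18. Both genes passed the detection filter only through the other cells, so the filter itself favoured a low ratio. Fewer than 3 of the ribosome assembly genes were detected often enough for a median against the other Myelo classes, where Mybbp1a averaged 9.40 TPM in Myelo-1 and under 1 in Myelo-3 and Myelo-4. Genes of protein folding and export in the endoplasmic reticulum were lower as well, with a median of -1.56. Of these, 20 of 25 were at least 2-fold lower and 0 higher, against 36.3% and 6.22% of all genes. Calr, the chaperone calreticulin, averaged 41.8 TPM against 453. Against the other Myelo classes alone the endoplasmic reticulum median turned to 0.28. Respiratory chain genes (median -0.68, 7 of 28 lower, 0 higher) and glycolysis genes (-0.61, 2 of 14 lower, 0 higher) lay near the -0.61 of all genes, and turned to 0.02 and 0.15 after removal of granule genes. Immediate early genes, which respond within minutes to stimulation and to tissue handling, had a median of -1.77 with 10 of 13 lower: Fos had a median of 64.7 TPM against 491, and Egr1 was detected in 26 of 72 cells against 32 of 55. The median of these genes was -0.68 without the CD11b+ gate, -0.61 against the other Myelo classes alone, and -1.50, -0.69 and -2.17 within the Ly6g high, Ly6g low and CD11b+ gates, where all genes had 0.09, -0.59 and -0.98.

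Among the ranked genes, 952 had a mean of at least 10 TPM on either side, a size of at least 2-fold and the same sign in all 3 gates; 155 were higher and 797 lower. The 12 highest were Mxd3, Gpr84, Cdkn2c, Hint3, Rdh12, Optn, Arhgap27, Cldn1, Orm1, Tnfsf13b, Hist1h2an and Appl1, with log2 ratios from 5.47 down to 2.71. Gpr84, a receptor for medium-chain fatty acids, was detected in 22 of 72 cells against 5 of 55, and Cldn1, a tight junction protein, in 23 against 6. Tnfsf13b, the B cell survival cytokine BAFF, averaged 77.05 TPM against 9.40, and was as high in Myelo-1 (87.8 TPM). Apart from Orm1, these genes were detected in 32 or fewer of the 72 cells. For Hint3 a single cell gave 50.2% of the Myelo-2 sum, so that its mean without that cell was 14.9 in place of 29.5 TPM.

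The 12 lowest were Mpo, Ctsg, Dmkn, F13a1, Fabp5, Phgdh, Slc25a4, Apex1, Hspe1, Ccnd2, Ptprs and Hnmt. Dmkn was listed at 0 in all 72 Myelo-2 cells and was detected in 17 of 55 others. F13a1, a coagulation factor subunit made by monocytes and precursors, Fabp5, Ccnd2 (cyclin D2), Ptprs and Hnmt also reached 1 TPM in 0 of 72 cells, and in 14 to 18 of the 55 others. These genes and Dmkn passed the detection filter only through the other cells, which favours a low ratio. Phgdh, the first enzyme of serine synthesis, was detected in 2 of 72 cells, and 98.7% of its Myelo-2 sum came from cells 8 and 10. Hspe1, a mitochondrial chaperonin, was detected in 8 against 28 cells. Ccnd2 and Ptprs averaged under 1 TPM in the other Myelo classes too, so their low level was not particular to Myelo-2. Against those classes alone the ratios of Apex1 and Ccnd2 turned to 0.81 and 0.02.

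Within Myelo-2, granule gene levels overlapped between the 3 gates, while Ly6g and Mmp9 differed in level. Median Camp was 64464, 62715 and 59707 TPM and median Chil3 16890, 18467 and 19921 TPM, and the ranges of cells overlapped throughout. Ly6g, the surface protein used for the sort, had medians of 255, 2.70 and 0 TPM, with 22 of 27, 25 of 31 and 4 of 14 cells detected, so that at 1 TPM the Ly6g gates were close and the CD11b+ gate low. Cells at 100 TPM or more numbered 17, 12 and 3. The Ly6g message crossed the gates, since the highest Ly6g low cell had 2336 TPM and the lowest Ly6g high cell 0. Mmp9 was detected in 17 of 27 Ly6g high cells against 3 of 31 and 1 of 14. Median Itgam was 148, 87.9 and 73.8 TPM. Elane was detected in all 14 CD11b+ cells of the class, at a median of 11.9 TPM, against 11 of 27 and 8 of 31. The other cells captured in that gate had a mean Elane of 16093 TPM, against 236 in Ly6g high and 17227 in Ly6g low, and whether RNA passed between wells was not tested.

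From cell to cell, the highly abundant Camp and the calprotectin genes S100a8 and S100a9 were among the most even. Variation was measured as the squared coefficient of variation of TPM (CV2) and set against the median of genes of like mean, in 20 bins of equal size, for 2871 genes detected in at least 25% of Myelo-2 cells with a mean of at least 10 TPM. Camp had a CV2 of 0.0576, 10.1 times below genes of like mean, and S100a8 (9.21 times below) and S100a9 (9.78 times below) were close to it. Ltf, at 0.325, was only 1.79 times below. The top bin spans a wide range of means, so the distance of the highest genes to their bin includes that range. S100a9, S100a8, Ngp and Camp together took a median of 49.2% of a Myelo-2 cell's TPM, with a range of 18.1 to 61.4%. The part of the fixed total in the evenness of single genes was not tested. The other 5 of the 6 most even ranked genes had far lower means: Prickle3, Ly6a (the surface antigen Sca-1), Ly6i, Colec12 and Myh9. Myh9, the heavy chain of nonmuscle myosin, ranged from 30.9 through 107 to 381 TPM. It was detected in all 72 Myelo-2 and all 55 other cells, as was Colec12. Tyr, which encodes tyrosinase, and the pseudogene Olfr856-ps1 were also even at low means (log2 -2.62 and -2.52 relative to genes of like mean). Whether such even low signal is expression or a background common to the cells was not tested.

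The most uneven genes rested on few cells. Elane, neutrophil elastase, had a CV2 of 30.5, 24.8 times that of genes of like mean: 1 cell, Ly6g low cell 36, held 15314 TPM and 60.5% of the summed Elane of the class. The next cells were Ly6g low cell 28 (6199 TPM) and CD11b+ cells 7 (1390) and 20 (1366), and the median cell had 0.83 TPM. Prtn3 followed the same top cell (2801 TPM in cell 36) and was 6.19 times above like genes. Srgn, the proteoglycan serglycin that packs granule proteases, was 5.80 times above, with 2711 TPM in cell 36 and 2580 TPM in cell 10, while cell 8, the cell most like it, had 90.7 TPM. Cell 36 also had the lowest Ltf of the class (116 TPM) while its Camp was 80449 TPM, and CD11b+ cell 20 had the next lowest Ltf (515 TPM) with Camp at 82357. Both high-elastase Ly6g low cells had over 3000 detected genes (3313 and 3537), as had 5 cells in all. Without those 5 cells the log2 ratio of Elane against the other classes went from -4.94 to -7.74.

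Ly6g (5.58 times above like genes) was the most uneven gene of the ranked set spread over many cells. It had 32 of 72 cells at 100 TPM or more and 21 under 1 TPM. The 32 cells were 17 of Ly6g high, 12 of Ly6g low and 3 of CD11b+. Since the sort used Ly6g, this spread pools the difference between gates with the variation within them. Sat1, an enzyme of polyamine breakdown, was 10.2 times above, through 1 cell at 11641 TPM beside a median of 312. Lgals9, Eif1ax, Cyb5, Ash2l and Hsd17b10 completed the 10 highest, at 4.50 to 5.40 times above, and in each of them a single cell gave between 34.4 and 67.6% of the sum. On the scale of SD of log2(TPM + 1), 4 of these 10 genes were in the top 10% for their mean, while all 6 even genes stayed in the bottom 10%.

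**Figure D4:**
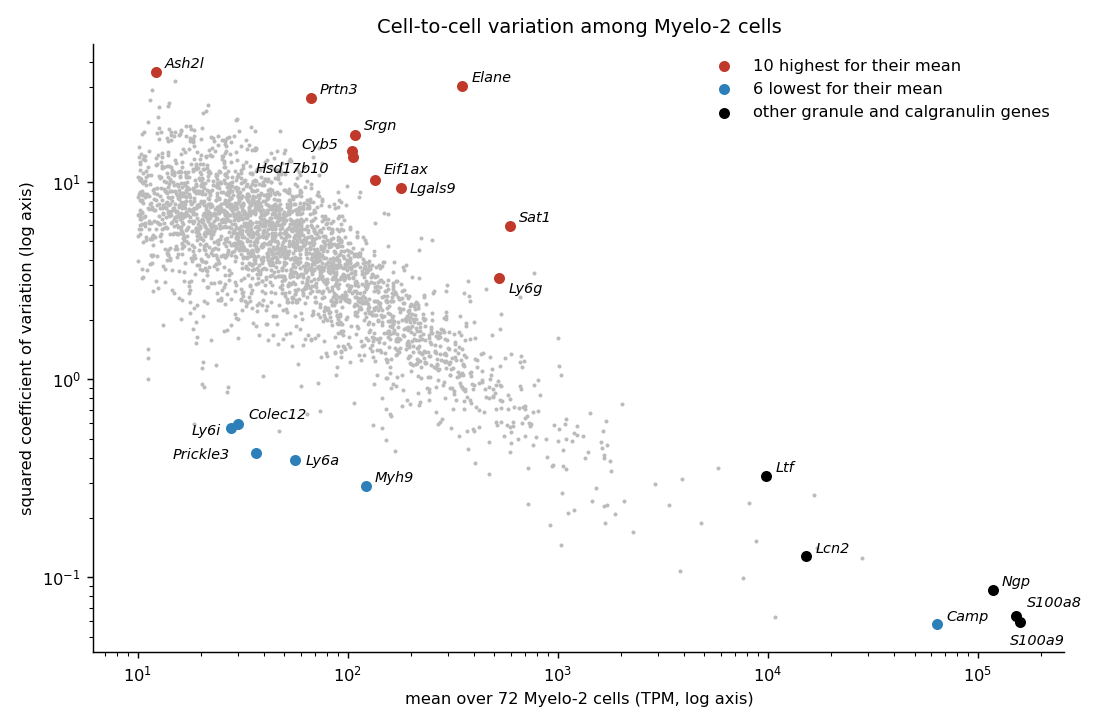
Each point is 1 of 2871 genes, placed by its mean over the 72 Myelo-2 cells and its squared coefficient of variation, both on log axes. Red points, the 10 most uneven for their mean in the ranked set, include Elane and Ly6g above the cloud. Blue points, the 6 most even of that set, lie below it, and Camp joins S100a8, S100a9 and Ngp at the lower right. Ribosomal protein genes and predicted loci are plotted but were not ranked.

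Ltf went with some granule genes and not with others. Across the 72 cells the genes most like Ltf included Ngp (Spearman rho 0.60), Cd177, a neutrophil surface glycoprotein (0.58), Cybb (0.53), Lyz2 (0.50) and Atp6v0c, a subunit of the vacuolar proton pump (0.45). These 5 partners had the same sign in each gate. Lcn2, also a specific granule gene, correlated with Ltf at 0.42. In contrast Ltf went against S100a8 (-0.43), and its correlation with Camp was -0.19 although both encode specific granule proteins. Other genes opposed to Ltf were Lars2 (-0.46), Rn45s (-0.44), Cks2 (-0.44), a cofactor of cyclin-dependent kinases, and Hnrnpab (-0.42). TPM are shares of 1 total, and the part of this in the correlations of abundant genes was not tested. S100a8 and S100a9 correlated at 0.45. The number of detected genes correlated at -0.04 with Ltf, 0.25 with Ngp and -0.44 with S100a8. Camp and Ngp correlated at -0.17, and Ltf and Mki67 at -0.02.

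Mki67 was most like other genes of chromosomes and spindles: Ndc80 of the kinetochore (0.53), Tacc3 of the spindle (0.52), Hist1h2bk (0.51), Hmgb3 (0.50), H2afv (0.50) and Kif20b, a mitotic kinesin (0.49). Each of these partners, however, also went with the number of detected genes, at rho 0.38 to 0.53, and Mki67 itself at 0.31. Elane and Mpo, at a low level in most cells, correlated at 0.70, and Elane and Ltf at -0.23. The 0.70 pools the gates, and Elane was detected more often in the CD11b+ gate than in the Ly6g gates. For this pair no correlation within a gate was computed, so a difference between gates or plates cannot be told from variation within the class. All correlations share libraries and are descriptions, with no test.

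**Figure D5:**
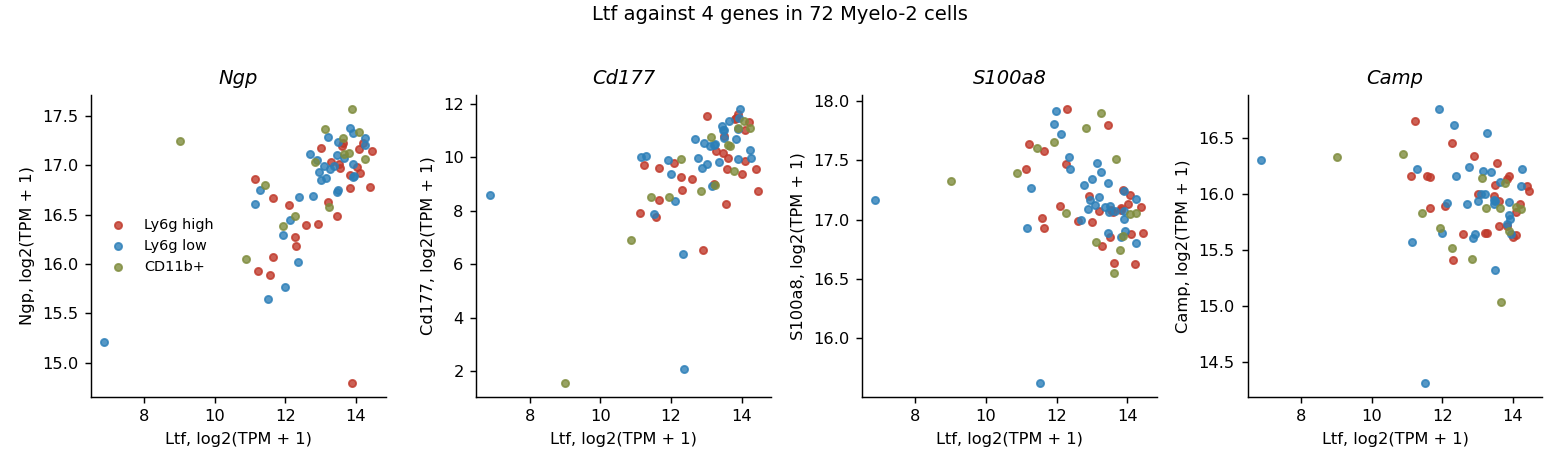
Each point is 1 of the 72 Myelo-2 cells coloured by gate; the x axis is Ltf and the y axis Ngp, Cd177, S100a8 or Camp, all as log2(TPM + 1). Ngp and Cd177 climb with Ltf (rho 0.60 and 0.58), S100a8 declines (-0.43) and Camp shows a weak slope (-0.19); the leftmost cell is Ly6g low cell 36.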

How the data were processed

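The authors deposited an expression table of 23946 genes, 1 column per cell, in log2(TPM + 1), and a file with 1 of 11 class names per cell. The submitters' processing notes name Bowtie2, RSEM and mm9; versions and annotation are not given in the sources used here. Per the labels' protocols, cells were captured on the Fluidigm C1, with SMARTer cDNA and Nextera XT libraries. The unit was read from the values: the deposited log2 values turned back to TPM summed to between 999633 and 1005380 per cell. No column was left without a sample.

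Here TPM were averaged over Myelo-2 cells and over all other cells, and compared as log2 ratios with a pseudocount of 1 TPM, which understates differences of low genes. A gene counted as measured when 25% or more of cells on 1 side or both had it at 1 TPM, and as called at a log2 ratio of size 1. A gene that passed through 1 side only leans to that side by this filter. The 24 gene lists, the members and the rules for named genes were chosen with earlier results of these data known. Named genes were 19 fixed ones, the 12 highest and 12 lowest ratios with a mean of at least 10 TPM and 1 sign in all gates, up to 3 members per list in the direction of its median, the 10 most and 6 least variable genes, and 6 partners at each end for Ltf and 6 for Mki67, of which a few are left unreported. The ranked sets leave out mitochondrial genes, microRNAs, small nucleolar RNAs, ribosomal proteins and predicted loci. No test was run, since each gate is 1 sample. Spearman correlations describe the 72 cells. Intervals are exact (Clopper-Pearson) at 95%, and with floors of 3 cells they cover counting error only. No doublet caller was run and all cells were kept. The steps were tested on simulated data. Upstream sequences came from RefSeq (GRCm38.p6), a build other than that of the files, so coordinates were not carried between them. Python 3.11.15, numpy 2.4.6, pandas 2.3.3 and scipy 1.17.1 were used.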

Additional observations from a re-analysis of the deposited data

How the results depend on the processing

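No paired analysis was possible because cell numbers pair nothing across gates and no result comes from a test. The counts of 273 genes at least 2-fold higher and 1593 lower depended on the setting. A pseudocount of 10 TPM gave 124 higher, a 10% trimmed mean 445, and cells with 1500 to 3000 genes (61 and 14 cells) 802. Means of log2(TPM + 1) gave 922 lower. Without a filter on low values 1105 were higher and 4409 lower, after rescaling without granule genes 850 and 805, and against the other Myelo classes alone 918 and 485. Without the Ly6g high gate 2501 were lower, and without the CD11b+ gate 502 were higher and 816 lower. The cause was not tested. In other settings both counts stayed within 1.5 times, also with cells 8 and 10 taken as 1 or without the 5 Myelo-2 cells of over 3000 genes, alternatives chosen after the data were seen.

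Some signs turned. The median of endoplasmic reticulum genes became 0.28 against the other Myelo classes alone, where Kit (0.11), Apex1 (0.81), Ccnd2 (0.021), Itgal (0.52), Pold1 (3.89), Sdha (1.98), Uqcrc2 (0.57) and Myb (0.33) also turned above 0. Without the CD11b+ gate Kit (0.39), Itga4 (0.72), Itgal (0.87), Pold1 (1.89), Chaf1a (1.03) and Dnajb9 (0.40) did. Pold1 turned to 0.17 as a mean of log2 values, 0.50 as a trimmed mean and 1.31 without the highest cells, Itgal to 0.23 without the highest cells, and Chaf1a to 2.12 in cells with 1500 to 3000 genes. Smaller ratios changed sign too, markers among them. Against the other Myelo classes alone Itgam went from 0.29 to -0.51, Ly6g from 0.13 to -0.74 and Mki67 from -0.46 to 0.90. Without the CD11b+ gate they were -0.38, -0.20 and 1.91. Ly6g was -0.34 in cells with 1500 to 3000 genes. Mki67 was 2.21 as a mean of log2 values, 1.80 as a trimmed mean and 0.58 after rescaling without granule genes.

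Of the 10 most uneven genes, 4 were in the top 10% by SD of log2(TPM + 1), where Ash2l turned to -0.48 (log2, relative to genes of like mean). Without the Ly6g low gate Lgals9 turned to -0.060 and Eif1ax to -0.13, and without the 5 cells Lgals9 to -0.18. All 18 correlations kept their sign with a size of at least 0.3 in the settings tried. At 5 TPM, 16 cells had Elane and 14 had Mpo, against 33 and 24. TPM keep no depth, so counting error per cell cannot be given.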
